A study of Mus musculus with 4 samples.

Results

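The VEGF system was compared between sorted populations of Flk-1 positive cells from cultures of TT2, a mouse embryonic stem cell line. It was followed as 9 genes, which were the receptors Kdr, Flt1 and Flt4, the neuropilins Nrp1 and Nrp2 and the ligands Vegfa, Vegfb, Vegfc and Pgf. A probe set counted for a gene when the platform annotation gave it that gene's symbol and no other, and the brightest probe set over the 4 arrays represented the gene. All 9 genes were found, among 18193 genes on the array, on 22 of its 34945 probe sets with 1 symbol. In both populations the stem cells were heterozygous for an Etv2-Venus knock-in, in which the fluorescent protein Venus reports the Etv2 locus, and the labels give day 5 of differentiation on OP9 stromal cells from mouse bone marrow. The Flk-1 positive cells were then sorted into Etv2-Venus positive cells (2 arrays, numbered 1 and 2) and Etv2-Venus negative cells (2 arrays, numbered 1 and 2). A single reporter line was used. Nothing in the labels says that the arrays of a population stem from different cultures, and the p-values therefore measure a spread that may be technical. Values are log2 expression by probe set, and differences are positive minus negative cells in log2 units with the standard error (SE) of a fit across all genes by limma.

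VEGF ligands are secreted dimers that bind receptor tyrosine kinases on the surface of endothelial cells and their mesodermal precursors. VEGF-A acts mainly through Kdr, the receptor also called Flk-1 or VEGFR2, and loss of Kdr in mice leaves embryos without blood islands and vessels. Flt1 (VEGFR1) binds VEGF-A, VEGF-B and placental growth factor with weak kinase activity and can act as a decoy, Flt4 (VEGFR3) is the receptor of VEGF-C and VEGF-D, and the neuropilins are co-receptors without a kinase that also bind class 3 semaphorins.

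The 250 bases before a RefSeq start are shown for 4 receptor genes. Flt4, Flt1 and Nrp2 were taken because their arrays lay highest in the positive cells, and Kdr because the cells were sorted on its protein. For Flt4 and Nrp2 the window ends just before the annotated span of the gene. For Flt1 and Kdr it lies inside that span. The sequences are from GRCm38.p6 and run 5′ to 3′ on the strand of the gene. Capitals mark GGAA, the core of the motif bound by ETS factors, the family of Etv2, and its reverse complement TTCC. Flt4 is on the plus strand at chr11:49609429-49609678, Flt1 on the minus strand at chr5:147726012-147726261, Nrp2 on the plus strand at chr1:62703067-62703316 and Kdr on the minus strand at chr5:75978456-75978705.
Flt4: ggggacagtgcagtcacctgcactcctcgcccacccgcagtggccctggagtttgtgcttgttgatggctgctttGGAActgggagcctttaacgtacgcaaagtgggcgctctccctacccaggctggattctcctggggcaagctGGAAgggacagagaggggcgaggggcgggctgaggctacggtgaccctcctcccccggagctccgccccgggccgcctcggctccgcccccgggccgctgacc
Flt1: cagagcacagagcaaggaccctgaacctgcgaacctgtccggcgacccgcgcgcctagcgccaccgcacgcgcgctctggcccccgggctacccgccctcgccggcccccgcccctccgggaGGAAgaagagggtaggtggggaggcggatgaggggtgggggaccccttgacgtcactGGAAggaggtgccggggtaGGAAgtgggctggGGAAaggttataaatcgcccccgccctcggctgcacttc
Nrp2: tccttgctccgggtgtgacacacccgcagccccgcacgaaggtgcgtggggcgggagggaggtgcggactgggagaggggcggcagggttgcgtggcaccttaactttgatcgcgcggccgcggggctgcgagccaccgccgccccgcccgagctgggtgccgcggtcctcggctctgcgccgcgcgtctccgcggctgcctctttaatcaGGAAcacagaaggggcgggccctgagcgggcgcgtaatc
Kdr: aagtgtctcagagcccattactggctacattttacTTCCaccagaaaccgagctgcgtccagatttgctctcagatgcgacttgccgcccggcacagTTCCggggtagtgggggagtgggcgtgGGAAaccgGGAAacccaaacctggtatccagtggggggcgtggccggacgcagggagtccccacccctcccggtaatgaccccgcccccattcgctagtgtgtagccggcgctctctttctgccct

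On both strands the window held 2 copies of GGAA for Flt4, 4 for Flt1, 1 for Nrp2 and 4 for Kdr. GGAA was present in 93.4% of the 32851 RefSeq promoter windows of this length, so its presence does not set these genes apart. CCGGAA, which contains GGAA, was found once, on the reverse strand of the Kdr window, and in 12.0% of all windows (a match is a string of letters and not a shown binding site). ACAGGAA, the core of a composite of forkhead and ETS motifs known from endothelial genes, occurred in 7.2% of all windows and in none of these 4 nor in those of the other 5 genes. Of the hypoxia response element cores, ACGTG occurred in 16.6% of all windows and, among the 9 genes, in 1 of the 2 windows of Vegfa, while GCGTG occurred in 28.2% of all windows and was found for Kdr, Flt1, Nrp1, Nrp2, Vegfa, Vegfb and Pgf. The Vegfa matches to these cores lay in the window at chr17:46025164-46025413, inside the span of the gene. The Vegfa window just before that span, at chr17:46032378-46032627, held neither core. The windows of Nrp1 and Pgf lay inside the spans of their genes.

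The labels were read against Etv2, which encodes the ETS factor behind the reporter, and against markers of the cells that such a culture can hold. Etv2 measured 12.64 and 12.41 in the Etv2-Venus positive cells, against 12.03 and 11.87 in the negative cells. The arrays were apart, with a difference of 0.57 (SE 0.13, 1.49-fold, limma adjusted p = 0.185). Etv2 transcript was thus bright in the Venus negative cells too. Of 14 endothelial markers 13 lay above both negative arrays on both positive arrays, and their summed linear signal was 6093 to 6099 in positive and 2876 to 3031 in negative cells. By the same rule 22.4% of all genes lay higher and 17% lay lower, which is the background for the marker counts here. Of 14 markers of OP9 stroma, fibroblasts and adipocyte precursors, cells that should not pass a Flk-1 gate, 3 lay lower and 11 overlapped. Their summed signal on arrays 1 and 2 was 3440 and 1337 in positive cells and 3733 and 1871 in negative cells. It was thus higher on array 1 in each population, and 9 of the 14 had a mean below the median of all genes. Of the 6 markers of undifferentiated stem cells 2 lay lower and 4 overlapped. Their summed signal on arrays 1 and 2 was 1337 and 1686 in positive cells and 2236 and 2271 in negative cells, higher on array 2 in each population. The brightest of the 6 was Klf4, which overlapped, at 9.79 and 10.45 in positive and 10.41 and 10.79 in negative cells. In such bulk samples fewer cells of a type and less RNA per cell cannot be told apart.

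At an adjusted p of 0.05 limma called 0 of the 9 VEGF genes, and 0% of all genes in either direction. At an unadjusted p under 0.05, 3 of the 9 were higher and 1 lower in the positive cells, where 7.07% of all genes were higher and 4.64% lower. Both positive arrays lay above both negative arrays for 3 of the 9, against 22.4% of all genes, and below them for 3 of the 9, against 17% of all genes. A difference of at least 2-fold was seen for 1 of the 9 in the higher direction, against 0.599% of all genes, and for 0 in the lower direction, against 0.423%. The median difference was -0.08 over the 9 genes and 0.01 over all 18193 genes. The 9 genes thus spread to both sides, and receptors and ligands are described in turn.

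**Figure D1:**
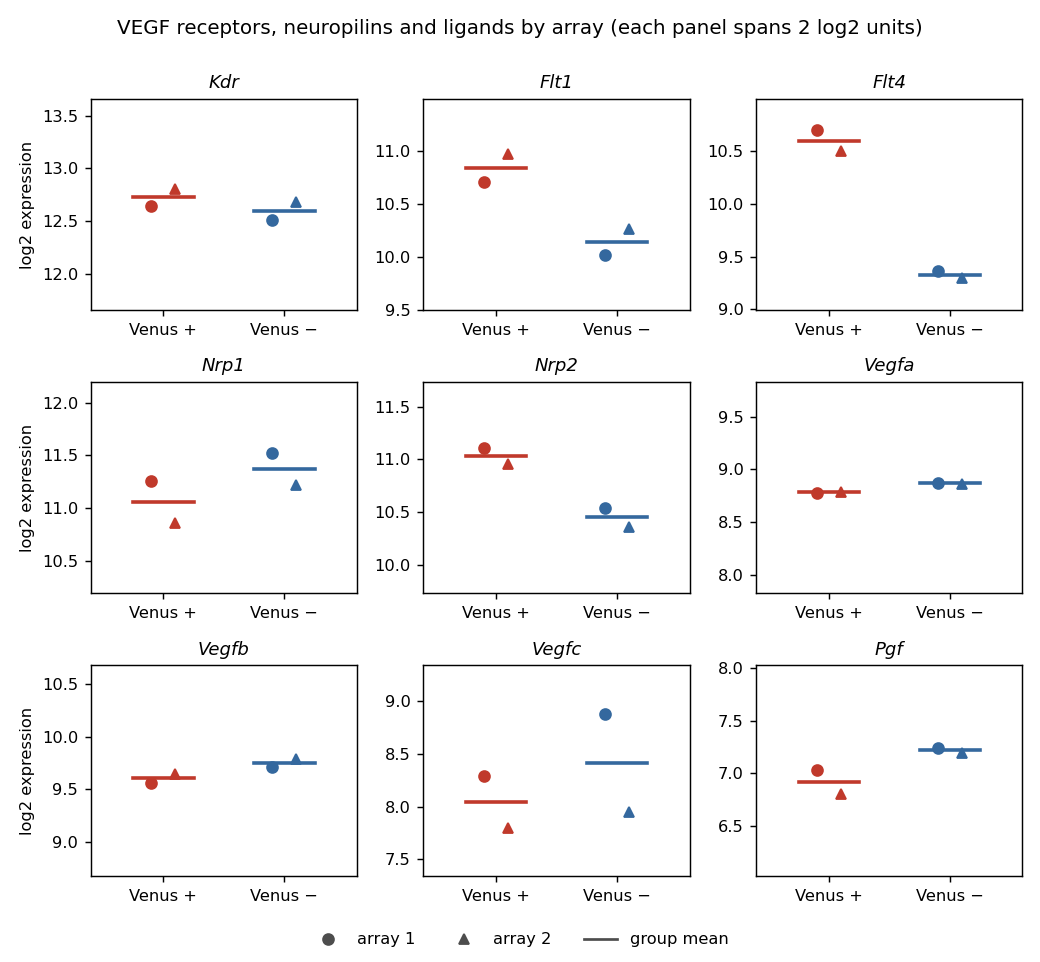
Log2 expression of the 9 genes on each array, with Etv2-Venus positive cells (red) left of negative cells (blue). Circles are arrays numbered 1, triangles arrays numbered 2 and lines group means, and every panel spans 2 log2 units. Flt4, Flt1 and Nrp2 sit higher in the positive cells with no overlap, and Vegfc differs most between arrays 1 and 2.

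Among the receptors, Flt4 stood furthest apart. It measured 10.70 and 10.50 in the Etv2-Venus positive cells, against 9.37 and 9.29 in the negative cells. The groups did not overlap, and the difference of 1.27 (SE 0.11, 95% interval 0.98 to 1.56, 2.41-fold, n = 2 arrays per group) was the 17th largest of 18193 in the higher direction and the 58th largest in either direction. It did not pass over all genes in limma (adjusted p = 0.0670). Of 11 other ways of fitting, 3 called it, namely the fit restricted to genes averaging 6 or more (adjusted p = 0.0429), a mean-variance trend with robust estimation (0.0390) and arrays centred on their medians (0.0241), and over all 11 its adjusted p ranged between 0.0241 and 0.399. The kept probe set has no transcript accession in the annotation used. The second Flt4 probe set, which has one, measured 6.63 and 6.86 in positive and 5.93 and 6.14 in negative cells, a smaller difference of 0.72 with the same order of arrays. The mean of both probe sets gave 0.99 (adjusted p = 0.0639).

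Flt1, the other receptor with arrays apart, measured 10.71 and 10.97 in the Etv2-Venus positive cells, against 10.02 and 10.26 in the negative cells. The lower positive array thus lay above the higher negative array, with a difference of 0.70 (SE 0.14, 95% interval 0.32 to 1.08, 1.62-fold, limma adjusted p = 0.163). The brightest Flt1 probe set gave the smallest difference of the 4. The others gave 0.88, 1.17 and 1.18, and all 4 had arrays apart in the same direction. On the probe set with the difference of 1.17 the arrays were at 10.41 and 10.40 in positive and 9.28 and 9.19 in negative cells. The mean over the 4 gave 0.98 (adjusted p = 0.0639), and Flt1 passed in none of the 11 other fits. Flt1 makes membrane-bound and secreted forms, and the sources used here do not say which form each probe set reads.

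Kdr encodes the protein on which both populations had been gated. It measured 12.64 and 12.81 in the Etv2-Venus positive cells, against 12.51 and 12.68 in the negative cells, on its only probe set. The arrays overlapped, and the difference was 0.13 (SE 0.12, 95% interval -0.17 to 0.43, limma adjusted p = 0.777). Array 2 exceeded array 1 by 0.17 in each population, which is more than the difference between the populations. Leaving out 1 array moved the difference, to 0.21 (positive array 1 left out), 0.05 (positive array 2), 0.04 (negative array 1) and 0.22 (negative array 2).

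**Figure D2:**
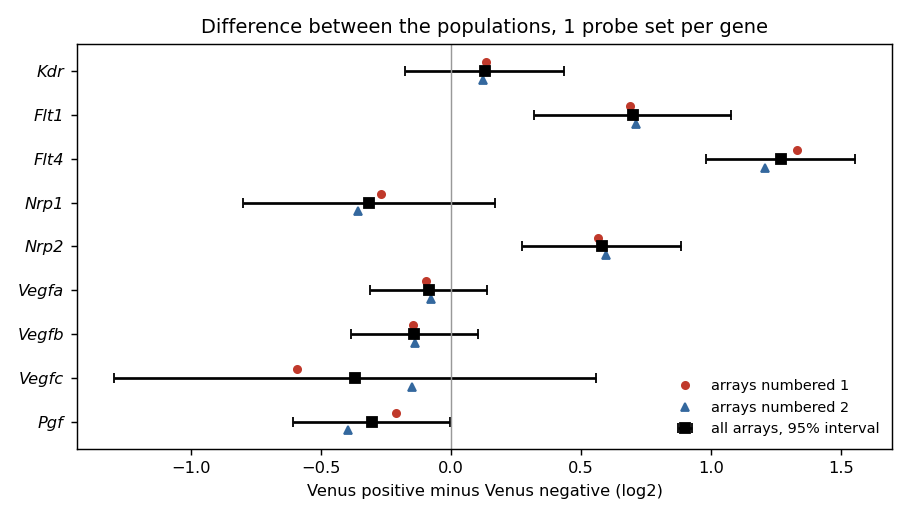
Difference of each of the 9 genes between Etv2-Venus positive and negative cells (log2 units). Squares with bars are the limma estimate from 4 arrays and its 95% interval, circles the difference between arrays numbered 1 and triangles that between arrays numbered 2. The intervals of Flt4, Flt1 and Nrp2 lie above 0, that of Pgf ends just below 0 and the other 5 include 0.

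Set against Kdr on the same array, Flt4 and Flt1 had higher ratios on both positive arrays than on either negative array. The log2 ratio of Flt4 to Kdr differed by 1.14 between the populations, by 1.20 among arrays numbered 1 and 1.08 among those numbered 2. For Flt1 to Kdr the values were 0.57, 0.55 and 0.59. An exact two-sided permutation test over 2 against 2 arrays gave p = 0.333 for each, the smallest this design allows, and 0.333 after adjustment over the 3 ratios compared. These ratios were chosen after the values were seen.

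The neuropilins differed in opposite directions, and neither passed the test. Nrp2, a co-receptor of Flt4 for VEGF-C, measured 11.11 and 10.95 in the Etv2-Venus positive cells, against 10.54 and 10.36 in the negative cells. The arrays were apart, with a difference of 0.58 (SE 0.12, 95% interval 0.28 to 0.89, 1.50-fold, limma adjusted p = 0.154). All 4 Nrp2 probe sets were higher with arrays apart, with differences between 0.26 and 0.58.

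Nrp1, a co-receptor of Kdr for VEGF-A, measured 11.26 and 10.86 in the Etv2-Venus positive cells, against 11.53 and 11.22 in the negative cells. These arrays overlapped, because array 1 of the positive cells exceeded array 2 of the negative cells, and the difference was -0.31 (SE 0.18, 95% interval -0.80 to 0.17, limma adjusted p = 0.621). Array 1 exceeded array 2 by 0.40 in positive and 0.31 in negative cells. Most of the stromal, stem cell and oxygen sensing genes listed also lay higher on arrays 1, and their part was not tested. Cxcl12 and Klf4 ran the other way, and the summed signal of the stem cell markers was higher on arrays 2. The other 3 Nrp1 probe sets did not overlap and gave -0.46, -0.43 and -0.69. On the first of these the positive arrays were at 10.32 and 10.24 and the negative arrays at 10.80 and 10.66. The mean over all Nrp1 probe sets gave -0.47 (95% interval -0.85 to -0.10, limma adjusted p = 0.361). The log2 ratio of Nrp2 to Nrp1 differed by 0.89 between the populations, by 0.83 among arrays numbered 1 and 0.95 among arrays numbered 2 (exact two-sided permutation p = 0.333, 0.333 after adjustment over the 3 ratios). This ratio too was chosen after the values were seen. The permutation test cannot decide here, because 0.333 is the smallest p this design allows.

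**Figure D3:**
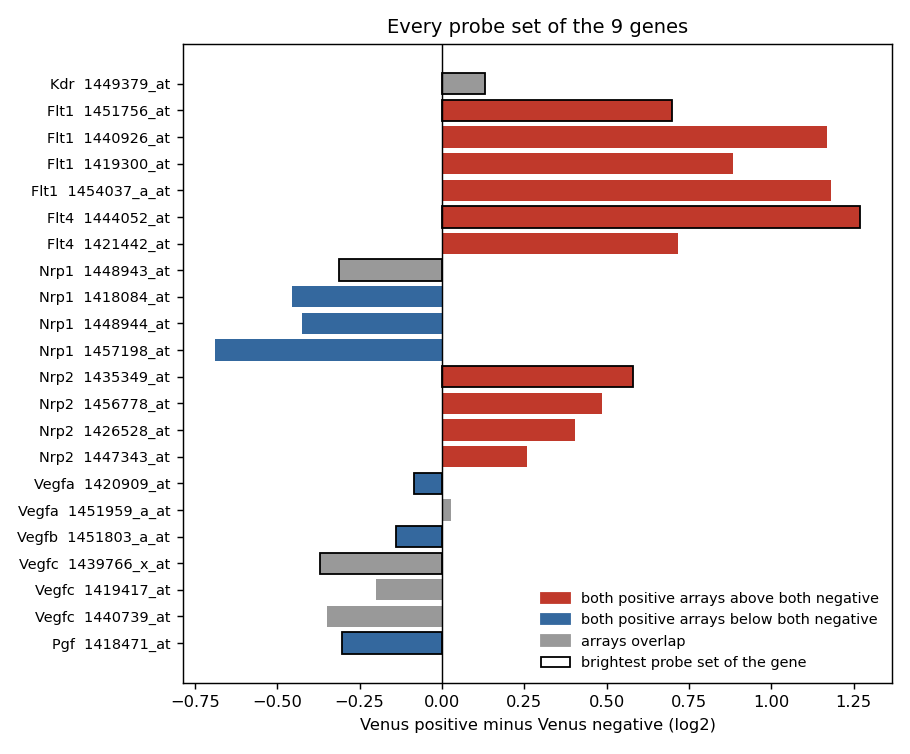
Difference between Etv2-Venus positive and negative cells (log2 units) for all 22 probe sets of the 9 genes, named by gene and probe set. Red bars have both positive arrays above both negative arrays, blue bars both below, grey bars overlap, and a black outline marks the brightest probe set of a gene. All 10 probe sets of Flt1, Flt4 and Nrp2 are red, and the 4 of Nrp1 point the other way, with 1 of them overlapping.

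None of the 4 ligand genes was higher in the positive cells on its kept probe set. Vegfa, the main ligand of Kdr and Flt1, measured 8.78 and 8.78 in the Etv2-Venus positive cells, against 8.87 and 8.86 in the negative cells. The arrays were apart with replicates very close to each other, and the difference was -0.08 (SE 0.09, 95% interval -0.31 to 0.14, limma adjusted p = 0.814). On the second Vegfa probe set the arrays overlapped, with a difference of 0.03. Vegfb, a ligand of Flt1, measured 9.56 and 9.65 in positive and 9.71 and 9.78 in negative cells. Its difference was -0.14 (SE 0.09, 95% interval -0.39 to 0.10, limma adjusted p = 0.671), with arrays apart. The intervals of Vegfa and Vegfb together reached no further than -0.39 and 0.14.

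Pgf, which encodes placental growth factor, a ligand of Flt1, measured 7.03 and 6.80 in the Etv2-Venus positive cells, against 7.25 and 7.20 in the negative cells. The arrays did not overlap and the difference was -0.30 (SE 0.12, 95% interval -0.61 to -0.0017, limma adjusted p = 0.423). The interval included 0 when every probe set was fitted, with a trended, robust variance estimate and after quantile normalization run again. Without array 2 of the positive cells the difference was -0.19, and its interval included 0 as it did without either negative array. Pgf had 1 probe set.

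Vegfc, a ligand of Flt4, had the largest spread between replicates of the 9 genes in both populations. It measured 8.29 and 7.80 in the Etv2-Venus positive cells, against 8.88 and 7.95 in the negative cells. The arrays overlapped, and array 1 exceeded array 2 by 0.49 in positive and 0.93 in negative cells, more than the difference of -0.37 between the populations (SE 0.35, 95% interval -1.30 to 0.56, limma adjusted p = 0.798). The difference was -0.59 among arrays numbered 1 and -0.15 among those numbered 2. Without array 1 of the negative cells it turned to 0.10, and without array 2 of the negative cells it was -0.83, and neither passed. The other Vegfc probe sets gave -0.20 and -0.35, also with overlap. Only the probe set at -0.20 has a transcript accession in the annotation used, and the kept one has none. The same order of arrays was seen for most genes of 3 other lists. Array 1 exceeded array 2 in both populations for 11 of 14 stromal markers, by a median of 0.39 in positive and 0.44 in negative cells, while Cxcl12 ran the other way in both. It did so for 5 of 6 markers of undifferentiated stem cells, by a median of 0.37 in positive and 0.62 in negative cells, while Klf4 ran the other way in both. For 15 of 16 oxygen sensing and hypoxia-induced genes it did so too, by a median of 0.20 in positive and 0.24 in negative cells. The part of these in the Vegfc values was not tested. Over all genes the same median was 0.07 in positive and 0.05 in negative cells. The share of all genes with array 1 higher in both populations was not computed, so these counts have no background.

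Genes whose 4 values ran most like those of a VEGF gene were taken by the root mean square distance between the values, each gene centred on its own mean, among 10170 genes with a mean of at least 6. For Flt4 they were Sox18, Bcl6b and Mmrn2, at distances of 0.03, 0.04 and 0.04 log2 units and with differences of 1.22, 1.24 and 1.28 between the populations. For Flt1 they were Knl1, Hivep3 and Tbc1d8, at 0.02, 0.03 and 0.03, and for Nrp2 Gen1, Selenop and Spin4, at 0.01, 0.02 and 0.02. For the ligands with arrays apart they were Trib1, Satb1 and Ociad1 for Vegfa, Baz2a, Cep131 and Mllt10 for Vegfb, and Tead2, Ctsf and Dbp for Pgf. The names describe the shape of these 4 values only.

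Other genes of the VEGF pathway were read in 4 lists by role, of which 75 of 82 genes were measured and 7 were not used here. Limma called 0 of the 75, the median difference was 0.07, and the arrays were apart for 23 in the higher and 12 in the lower direction, against 22.4% and 17% of all genes. Of the 75, 11 were higher and 4 lower at an unadjusted p under 0.05, against 7.07% and 4.64% of all genes. The list medians lay between -0.00 and 0.09. For the counts of each list below, the background is again 22.4% of all genes apart in the higher and 17% in the lower direction.

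Among receptor partners and regulators, 6 of 17 genes had arrays apart in the higher and 3 in the lower direction. Plxnd1, a plexin that pairs with neuropilins or binds Sema3e, measured 10.87 and 10.93 in the Etv2-Venus positive cells, against 10.05 and 10.08 in the negative cells, a difference of 0.84 (SE 0.09, limma adjusted p = 0.0698). Cdh5, the endothelial cadherin that associates with Kdr, differed by 0.98 (SE 0.15), Itgb3, an integrin subunit, by 0.55 (SE 0.09) and Ptprb, an endothelial phosphatase that acts on Kdr and Tek, by 0.41 (SE 0.09). Plxna2, a plexin partner of neuropilins named after its value was seen, differed by -0.77 (SE 0.20).

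Of 31 measured signalling genes, 11 had arrays apart in the higher and 5 in the lower direction. Vav3, a guanine nucleotide exchange factor, measured 9.71 and 9.66 in the Etv2-Venus positive cells, against 8.61 and 8.59 in the negative cells. Its difference was 1.08 (SE 0.09, limma adjusted p = 0.0670). Nos3, the endothelial nitric oxide synthase, measured 8.98 and 8.90 in positive and 7.87 and 7.93 in negative cells, a difference of 1.04 (SE 0.09, limma adjusted p = 0.0670). The kinase Yes1 and the phospholipase Plcg2 differed by 0.60 (SE 0.09) and 0.38 (SE 0.10). Like Flt4, the genes Plxnd1, Vav3 and Nos3 passed in the same 3 other fits.

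Of 13 genes for other ligands, their processing and semaphorins, 3 had arrays apart in each direction. Pcsk5, a proprotein convertase able to process VEGF-C, measured 9.09 and 8.88 in the Etv2-Venus positive cells, against 10.14 and 9.79 in the negative cells, a difference of -0.98 (SE 0.16, limma adjusted p = 0.118), and among the 11 other fits passed in 1, with arrays centred on their medians. Sema3a, a ligand of Nrp1, differed by 0.47 (SE 0.19), and Furin, another convertase, by 0.18 (SE 0.09). Sema3f, a ligand of Nrp2, differed by 0.07 (SE 0.09). Vegfd, the other ligand of Flt4, named after its value was seen, was dim, at a mean of 3.68 in positive and 4.02 in negative cells, so that the size of its difference is uncertain.

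Genes that VEGF induces in endothelium had a median difference of -0.00 over 14 genes and arrays apart for 3 in the higher and 1 in the lower direction. Dll4, a Notch ligand named after its value was seen, had the largest difference, 0.75 (SE 0.17), at a dim mean of 5.66 in positive and 4.91 in negative cells. Adamts1, a secreted protease, differed by 0.36 (SE 0.10) and Nr4a3, a nuclear receptor of the early response, by 0.29 (SE 0.15). F3, which encodes tissue factor, was at -0.36 (SE 0.26) and Rcan1, an inhibitor of calcineurin, at 0.07 (SE 0.12). Oxygen sensing and hypoxia-induced genes, which include regulators of Vegfa, had a median of -0.04 over 16 genes, and 2 had arrays apart in each direction. P4ha1, Epas1, Bnip3 and Ndrg1 were at 0.23, -0.33, -0.22 and -0.23, and Hif1a, named after its value was seen, measured 11.89 and 11.69 in positive and 11.85 and 11.68 in negative cells.

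**Figure D4:**
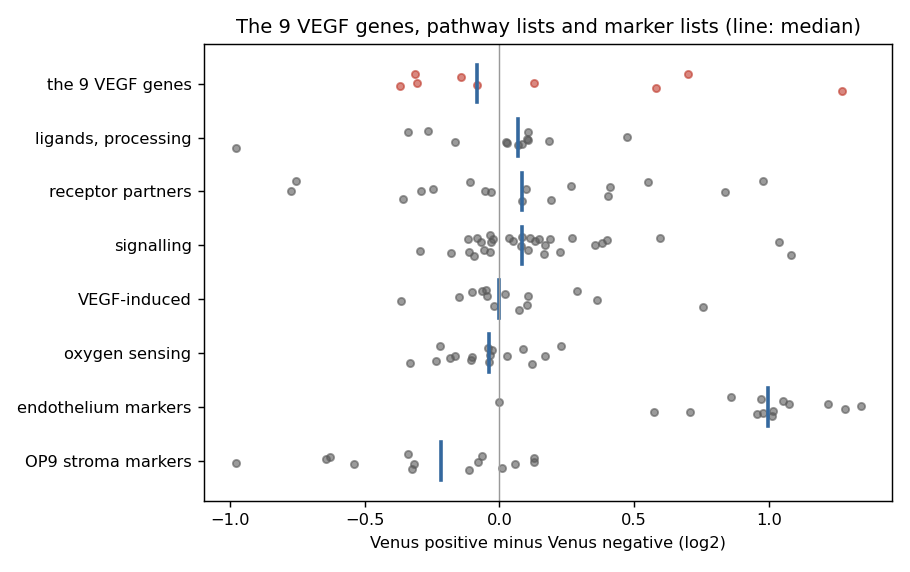
Difference between Etv2-Venus positive and negative cells (log2 units) for the 9 VEGF genes, the 4 VEGF pathway lists, the oxygen sensing list and 2 marker lists. Each point is a gene and each blue line a median. The pathway medians lie near 0, and the endothelial markers have a median of 0.99, to the right of most pathway genes.

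Flt4, Flt1 and Nrp2 were higher in the population whose endothelial markers were also higher. The median difference of those markers was 0.99, beside 1.27, 0.70 and 0.58 for the 3 genes on their brightest probe sets. With each gene's probe sets averaged, the 3 genes gave 0.99, 0.98 and 0.43. The markers were read on their brightest probe sets only, so the averaged values cannot be placed beside the marker median. The part of cell composition in these differences was not tested.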

How the data were processed

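Total RNA of 4 sorted samples was labelled with biotin and measured on Affymetrix arrays, per the labels' protocols. The authors deposited log2 values for each probe set. These came from RMA, run in R 2.8.0 according to the submitters' processing notes. The values themselves gave the log base. RMA removes shifts common to all genes and compresses differences near background and saturation. Groups came from the sample titles. Of 45101 probe sets, 64 controls, 932 with several symbols and 9160 unlisted ones were left out. The brightest probe set per gene was kept, giving 18193 genes.

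The test was limma's moderated fit (limma 3.58.1, R 4.3.3), with group as the only term (2 residual and 2.68 prior degrees of freedom), two-sided, with Benjamini-Hochberg adjustment over all genes and a threshold of 0.05. The number of arrays limits the precision. Named were the 9 genes, up to 4 genes per pathway list with the smallest p that averaged 6 or more in either group, the nearest profiles, Etv2 and Pdgfra. Members, lists and tests were chosen with earlier results of these data known. Pdgfra, the PDGF receptor used as a second check of the labels, was at 8.55 and 7.67 in Etv2-Venus positive and 10.11 and 9.41 in negative cells. Promoters were from RefSeq (GRCm38.p6) and were matched for 9 of 9 genes, with 2 windows each for Vegfa and Pgf. Of 9 blood markers, arrays were apart for 4 in the higher and 2 in the lower direction, and of 6 cardiomyocyte markers for 0 and 2 (Actc1 at -1.33 and Myl7 at -0.57). Over all genes, arrays were apart for 22.4% in the higher and 17% in the lower direction. All 6 markers of Flk-1 mesoderm had arrays apart, with Etv2, Tal1 and Lmo2 at 0.57, 1.02 and 0.98 and Mesp1, Pdgfra and Hand1 at -1.64, -1.65 and -0.56. Figures were drawn with matplotlib 3.10.9.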

Additional observations from a re-analysis of the deposited data

How the results depend on the processing

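Over 11 alternatives, 95 of the 99 differences of the 9 genes kept their direction and their side of the threshold, 3 passed it (Flt4) and 1 reversed (Vegfc, 0.10 without array 1 of the negative cells, where the main difference was -0.37). Not every direction was free to change. The difference itself is fixed when every probe set is fitted, when genes are restricted by their mean, with a trended, robust variance estimate and with a replicate block. Centring arrays on their medians shifts all genes alike. In the main fit limma called 0 of 9 VEGF genes, 0 of the pathway genes and 0 of all genes, and 1287 and 844 genes were higher and lower at an unadjusted p under 0.05. Restricted to genes averaging 6 or more, it called 1 VEGF gene, 3 pathway genes and 66 genes in all as higher and 13 in all as lower. With a trended, robust variance estimate it called 1, 3 and 81 as higher and 31 in all as lower. With arrays centred on their medians it called 1, 3 and 190 as higher, and 1 pathway gene and 91 genes in all as lower. The cause of these changes was not tested. With every probe set, with a gene's probe sets averaged, with quantile normalization run again and without each array in turn, 0 of these genes were called. Without each array the difference of Flt4 lay between 1.17 and 1.37, that of Flt1 between 0.57 and 0.83, that of Nrp2 between 0.49 and 0.67 that of Nrp1 between -0.51 and -0.12, that of Vegfc between -0.83 and 0.10, that of Kdr between 0.04 and 0.22 and that of Pgf between -0.42 and -0.19.

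The array numbers are shared between the populations, but the labels do not say that they mark a common culture. Deviations from the group means of arrays with the same number had a correlation of 0.54 over genes. With the array number as a replicate block, 0 VEGF genes, 0 pathway genes and 0 genes in all were called, and the adjusted p was 0.0856 for Flt4, 0.0878 for Flt1, 0.0932 for Nrp2 and 0.162 for Nrp1.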
